A study of Mus musculus with 4 samples.

Results

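Gene expression in epididymal white adipose tissue after 1 day of CL 316243 was compared with that of control tissue. The comparison was defined by the sample labels and used 2 of the series' 4 microarrays, the control array and the day 1 array. Both held RNA pooled from epididymal fat of male C57BL/6 mice aged 3 to 4 months. The mice behind the day 1 array received CL 316243 at 3 nmol/hr for 1 day. The other arrays held the same tissue after 3 and 6 days of the same dose, and their levels are given here beside the day 1 values where they help to place them. Not given in the sources used here are how many mice made up a pool, the route of dosing and what the control mice received. The titles of the day 1 and day 3 arrays write the compound as 316234, and the descriptions write 316243. Each state had 1 array, so no difference has a replicate check, no p-value is given, and the number of arrays limits the precision.

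CL 316243 selectively activates the β3-adrenergic receptor, which in mice is found mainly on fat cells. This receptor couples through a stimulatory G protein to adenylyl cyclase. The cyclic AMP that is formed activates protein kinase A, which phosphorylates lipases and droplet proteins so that stored triglyceride is broken down, and phosphorylates CREB, a factor that switches on early response genes. In brown and beige fat cells the same pathway turns on uncoupling protein 1, which lets mitochondria make heat. Prolonged stimulation of white fat is known to draw white blood cells into the tissue before the fat cells acquire more oxidative capacity.

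The values are probe set intensities on a linear scale as the authors deposited them, brought to a common trimmed mean. All 12422 probe sets other than array controls were compared, and they stand for 8251 genes by symbol. Values below 173 intensity units, the 40th percentile over the 4 arrays, were raised to that floor before a ratio was taken. A probe set or gene is called higher or lower when the day 1 to control ratio after this step was at least 2-fold. A ratio whose dimmer side lay at or below the floor is a lower bound and is given as "at least". The intensities printed are those before the floor, so that a value below 173, or below 0, means that no signal above the floor was seen. A gene with several probe sets is given by the brightest. The error of a log2 change was read from pairs of probe sets for the same gene in 545 genes. Both probe sets of a pair stood at 2 times the floor or more on both arrays, so dimmer genes were not covered. The error was 0.28, but in 35 of the 545 genes the pair differed by over 1 log2. As 3 errors came to 1.78-fold, changes short of 2-fold are given as levels only. That error holds no variation between mice. Of 322 named genes past 2-fold, 80 came within it with a floor at the 60th percentile, where dim genes cannot show a large ratio.

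Of the 12422 probe sets, 628 (5.06%) were at least 2-fold higher at day 1 and 659 (5.31%) at least 2-fold lower. Of the 6057 genes above the floor on either array, 471 (7.78%) were higher, 524 (8.65%) were lower and 5062 stayed within 2-fold. These shares are the background against which the members of each gene list below can be read. The median log2 change over those genes was -0.04. The large changes were mostly increases: 51 genes were at least 8-fold higher against 21 at least 8-fold lower, and 24 against 3 at 16-fold. Among genes averaging 2 to 4 times the floor 9.06% were higher and 10.8% lower, and among those over 16 times the floor 9.17% and 10.3%. The shares were 7.58% and 8.21% at 4 to 8 times the floor, 8.40% and 8.78% at 8 to 16 times, and lowest in the dimmest class, at 4.76% and 5.25%. At day 3, 238 genes (3.98%) were higher and 204 (3.41%) lower than on the control array, and at day 6, 108 (1.82%) and 102 (1.72%). The 3 comparisons share the control array.

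**Figure D1:**
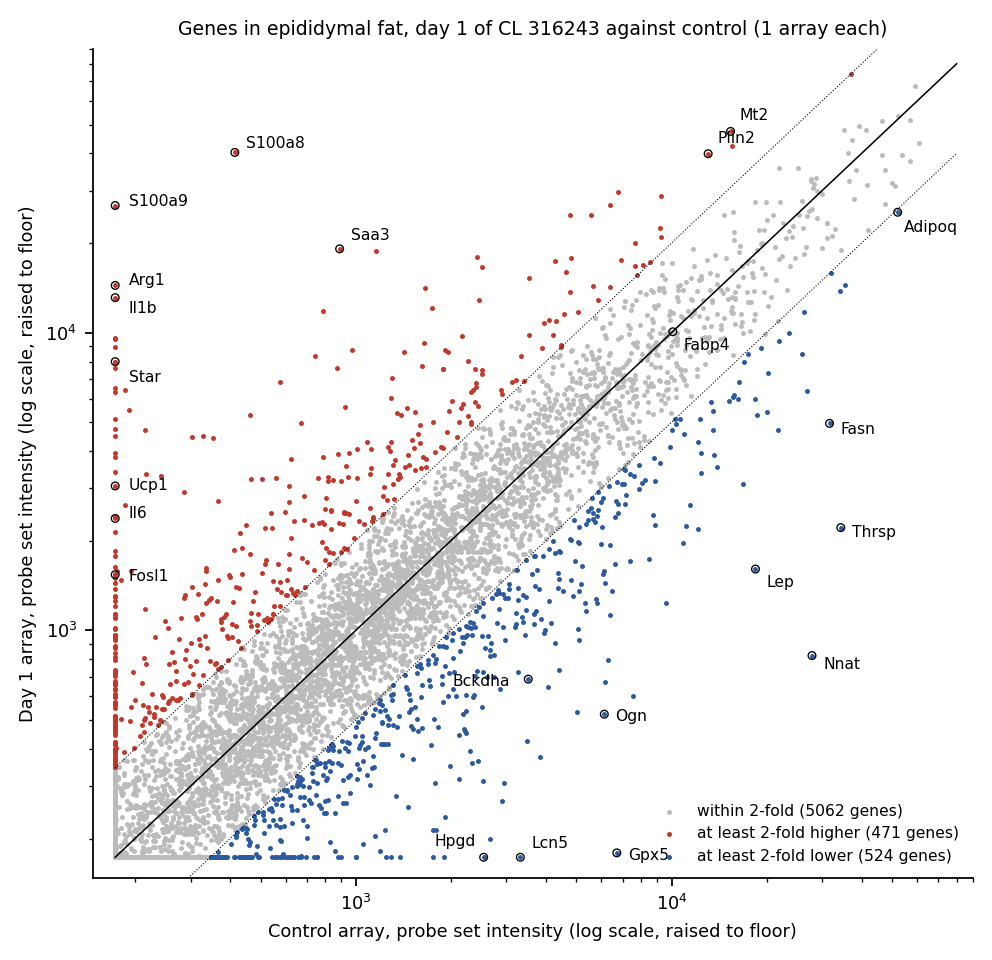
Intensity of each gene above the floor on the control array (horizontal axis, log scale) and on the day 1 array (vertical axis, log scale), with values under the floor raised to it and 1 array on each axis. The solid line marks equal levels and the dotted lines 2-fold. The 471 higher genes reach farther from the line than the 524 lower ones, and the column of points on the left edge holds genes such as S100a9, Il1b, Arg1 and Star that were at or below the floor on the control array.

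The label of the tissue was set against fat cell markers. All 13 measured markers of 16 listed were above the floor on both arrays. The adiponectin gene Adipoq stood at 52042 units on the control array and 25374 on the day 1 array, and Fabp4, which encodes the fatty acid carrier of fat cells, at 10100 and 10068. The share of probe sets above the floor was 60.1% on both arrays. The ratio of 3′ to 5′ signal of the array's control probe sets, a sign of RNA integrity, was 0.941 and 0.991 for Gapdh and 1.34 and 1.26 for Actb on the control and day 1 arrays. For the biotin enzyme pyruvate carboxylase, Pcx, it was 3.43 on the control array and 5.58 on the day 1 array, 3.23 at day 3 and 6.58 at day 6.

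None of the genes for G proteins and cyclases behind the receptor passed 2-fold on its brightest probe set. Of 15 measured genes of a list that also holds related receptors (α-adrenergic and natriuretic peptide receptors among those measured), 10 were above the floor, 0 were higher, and the single lower gene was the natriuretic peptide receptor Npr3, described with the fat cell genes. Gnas, the stimulatory G protein subunit, stood at 37979 units on the control array and 28115 on the day 1 array. The inhibitory subunit Gnai2 stood at 22077 and 27379, with further probe sets at 1261 and 2774 (2.20-fold higher) and at 6928 and 10373, and its relative Gnai1 at 9251 and 5481. Among 19 genes for protein kinase A subunits, cyclic nucleotide phosphodiesterases and dampers of the signal, 2 were higher and 3 lower. The phosphodiesterases Pde1b (211 units on the control array, 480 at day 1) and Pde8a (256 and 580) were each 2.27-fold higher, though both came within 2-fold with a floor at the 60th percentile or a constant of 100 in place of the floor. The kinase A scaffold Akap12 went from 1448 to 634 units and was 2.28-fold lower. Rgs5, a dampener of G protein signals found in pericytes, was 2.53-fold lower (1274 and 504). Pkia, the inhibitor peptide of protein kinase A, was at least 2.16-fold lower, with 373 units on the control array and 109 at day 1. Pde4b, a phosphodiesterase whose gene answers to cyclic AMP in many cells, stood at 120 and 253 units. Its ratio did not pass 2-fold, but it is a lower bound because the control level lay below the floor. The G protein dampener Rgs2 stood at 493 and 631 units, with 1318 at day 3 and 1615 at day 6.

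All 6 Fos and Jun family genes above the floor had a log2 change above 0, and 4 of them were higher. Fosl1, which encodes the Fra-1 subunit of the AP-1 factor, stood at -21 units on the control array and 1539 at day 1, at least 8.89-fold higher, and at -28 and -48 units at days 3 and 6. Junb stood at 302 units on the control array, 4454 at day 1, 632 at day 3 and 110 at day 6, 14.7-fold higher at day 1. Fos stood at 450, 2262, 1807 and 384 units in the same order and was 5.02-fold higher at day 1, and Jun was 2.45-fold higher (466 and 1140 units). So Fosl1 was above the floor at day 1 alone, while Fos was still high at day 3. Jund, the most abundant member, stood at 16422 and 19477.

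Of 20 other growth response genes above the floor, 8 were higher and 0 lower. Gadd45b, a stress-induced regulator of growth arrest, had 127 units on the control array and 2134 at day 1, at least 12.3-fold higher. Ier3, an early survival gene, had 975 and 8777 units, 9.0-fold higher. Zfp36, whose protein binds AU-rich elements of cytokine messages and speeds their decay, was 4.02-fold higher (1012 and 4066). The phosphatase gene Dusp1, which ends MAP kinase signals, stood at 5052 units on the control array, 11757 at day 1, 3128 at day 3 and 3953 at day 6, 2.33-fold higher at day 1. Egr1 was 2.02-fold higher (538 and 1088) but within 2-fold with the constant of 100 or with averaged probe sets, Ier2 2.28-fold higher (1023 and 2327) and Myc at least 2.58-fold higher (156 and 446). None of 9 Kruppel-like factor genes passed 2-fold, and Klf4 stood at 1847 and 1819 units.

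Factors and kinases that answer to cyclic AMP were in part higher: 5 of 11 above the floor were higher and 1 lower, with a median log2 change of 0.92. The survival kinase Pim1 was 3.84-fold higher, at 1453 units on the control array and 5577 at day 1, and Pim3 2.24-fold higher (2878 and 6434). The clock gene Per1 was 3.46-fold higher (315 and 1089), the stress factor Atf3 2.64-fold higher (833 and 2198) and the orphan nuclear receptor Nr4a1 2.57-fold higher (258 and 663). Crem, a cyclic AMP response modulator, stood at 314 and 475 units and did not pass 2-fold. The coactivator Crebbp was 2.22-fold lower, at 513 and 231 units, and within 2-fold with the higher floor or the constant.

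Some early response, cytokine and antioxidant genes were higher together. Whether promoter motifs bear on the day 1 values was not tested. Promoters of some of the named genes are printed with their motif matches. They come from RefSeq's gene starts in build GRCm38.p6, and each line holds the 150 bases just before a gene's start, 5′ to 3′ on the gene's own strand, with motif matches in capitals. Capitals mark the NF-kappaB consensus in Cxcl1, Cxcl2, Nfkbia and Il6, the C/EBP motif TTGCNNAA in Il6 and Saa3, the AP-1 motif TGANTCA in Srxn1, and the cyclic AMP response element (CRE) TGACGTCA in Dusp1 and Dio2. The windows are chr5:90891095-90891244 on the plus strand for Cxcl1, chr5:90903749-90903898 on the plus strand for Cxcl2, chr12:55492648-55492797 on the minus strand for Nfkbia and chr5:30012964-30013113 on the plus strand for Il6. They are chr7:46715677-46715826 on the minus strand for Saa3, chr2:152105374-152105523 on the plus strand for Srxn1, chr17:26508473-26508622 on the minus strand for Dusp1 and chr12:90739039-90739188 on the minus strand for Dio2.
Cxcl1: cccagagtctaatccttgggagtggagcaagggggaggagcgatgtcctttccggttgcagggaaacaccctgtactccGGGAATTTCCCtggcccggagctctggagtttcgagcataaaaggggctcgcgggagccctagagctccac
Cxcl2: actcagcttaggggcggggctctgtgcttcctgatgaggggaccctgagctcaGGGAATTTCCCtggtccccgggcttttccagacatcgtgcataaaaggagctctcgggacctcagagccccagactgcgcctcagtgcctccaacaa
Nfkbia: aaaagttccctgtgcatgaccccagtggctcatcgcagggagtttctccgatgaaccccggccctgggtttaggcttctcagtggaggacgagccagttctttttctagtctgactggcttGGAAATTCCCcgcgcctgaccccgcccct
Il6: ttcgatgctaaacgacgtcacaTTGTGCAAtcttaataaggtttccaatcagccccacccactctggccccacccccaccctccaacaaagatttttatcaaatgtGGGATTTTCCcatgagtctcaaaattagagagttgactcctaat
Saa3: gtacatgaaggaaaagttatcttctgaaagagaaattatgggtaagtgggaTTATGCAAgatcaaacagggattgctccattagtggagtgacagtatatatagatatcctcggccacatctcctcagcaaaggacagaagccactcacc
Srxn1: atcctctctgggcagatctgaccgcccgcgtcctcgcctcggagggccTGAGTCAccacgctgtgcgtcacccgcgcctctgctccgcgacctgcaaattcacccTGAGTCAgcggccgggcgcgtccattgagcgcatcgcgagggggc
Dusp1: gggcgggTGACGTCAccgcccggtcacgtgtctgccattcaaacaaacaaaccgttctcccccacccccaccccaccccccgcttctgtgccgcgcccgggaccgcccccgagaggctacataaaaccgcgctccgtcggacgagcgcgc
Dio2: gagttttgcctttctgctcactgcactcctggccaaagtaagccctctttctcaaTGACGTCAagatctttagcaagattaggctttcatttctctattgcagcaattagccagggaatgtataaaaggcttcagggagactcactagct

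Cxcl1 and its neighbour Cxcl2 carry the same 11-letter run, which holds a match on both strands, from -71 to -61 and from -97 to -87 relative to the gene start. The Nfkbia match lies at -29 to -20. Il6 has its NF-kappaB match at -44 to -35 and its C/EBP match at -128 to -121, and Saa3 has a C/EBP match at -99 to -92. Srxn1 holds AP-1 letters at -102 to -96 and again at -45 to -39. The full CRE lies at -143 to -136 in Dusp1 and at -95 to -88 in Dio2. The 8 windows were chosen after motifs had been searched, so their matches are an illustration of the genes' sequence and no count.

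The motifs were counted on both strands in the whole promoter table, from 250 bases before to 50 after each gene start, with promoters of 4867 of the 6057 genes above the floor matched by symbol. The C/EBP motif was present in 15.8% of 481 promoters of higher genes, 9.98% of 521 promoters of lower genes, 8.07% of 5289 promoters of genes within 2-fold and 10.8% of all 32851 promoters in the table. The AP-1 motif was present in 8.73%, 5.95%, 5.50% and 7.81% in the same order, and the NF-kappaB consensus in 13.1%, 10.2%, 10.4% and 8.46%. The full CRE was present in 2.49% of promoters of higher genes, 1.73% of lower, 2.87% of those within 2-fold and 1.79% of all. The TATA box, searched as TATAAA, was present in 13.3%, 11.5%, 7.73% and 13.6%, in the same order. Among the 47 promoters of genes at least 8-fold higher, the C/EBP motif was present in 14.9%, AP-1 in 10.6%, the NF-kappaB consensus in 17.0%, the TATA box in 25.5% and the full CRE in 0. Their median GC content was 52.0%, against 60.7% for genes within 2-fold and 52.7% for all promoters, and its part in the motif shares was not tested. None of these motifs contains another, a gene can have several promoters in the table, and these shares are descriptions with no test. A match does not show that a factor bound there.

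Chemokine genes, whose proteins attract white blood cells, were mostly higher. Of 9 CXC chemokine and receptor genes above the floor (14 measured), 7 were higher and 1 lower, with a median log2 change of 2.24, or 1.56 with a floor at the 60th percentile. A member above the floor on the day 1 array alone could only have a positive change, so the medians and counts of the lists describe these arrays and nothing more. Cxcl2, a ligand of the neutrophil receptor CXCR2, stood at 32 units on the control array, 9604 at day 1, 440 at day 3 and 57 at day 6, at least 55.5-fold higher at day 1. Its relative Cxcl1 stood at 99, 8918, 265 and 64 units in that order and was at least 51.5-fold higher, with a further probe set at least 37.4-fold higher. Cxcl5, of the same ligand group, had 19 units and then 5118, at least 29.6-fold higher. Both Cxcl2 and Cxcl1 were high on the day 1 array and at 440 units or less on the others. Cxcl12, a ligand made by stromal cells, was 3.14-fold higher, at 1281 and 4017 units. This brightest probe set still stood at 3108 units at day 3, but further probe sets for the gene did not stay as high. They stood at 1394, 3707 and 1796 units and at 507, 1517 and 559 units on the control, day 1 and day 3 arrays. The receptor gene Cxcr2 was at least 8.63-fold higher (124 and 1494) and Cxcr4 at least 4.72-fold higher (171 and 817). Cxcl9, a chemokine induced by interferon-γ, went the other way and was at least 7.48-fold lower, at 1295 and 132 units.

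Of 16 CC chemokine and receptor genes above the floor (24 measured), 11 were higher and 0 lower. The monocyte chemoattractant Ccl2 stood at 785 units on the control array, 11807 at day 1, 2398 at day 3 and 495 at day 6, 15-fold higher at day 1. Ccl7, a ligand of the same receptor, was 13.6-fold higher (329 and 4492). Ccl3 was at least 25.9-fold higher (131 and 4480), and Ccl4 at least 10.7-fold higher (-136 and 1855). Their receptor gene Ccr1 stood at 215 and 4719 units, 21.9-fold higher. Ccl8 differed in its course, with 1293 units on the control array, 4279 at day 1, 6021 at day 3 and 4946 at day 6. It was thus the one CC chemokine named here with a higher level at days 3 and 6 than at day 1.

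Of 24 interleukin and interleukin receptor genes above the floor (42 measured), 15 were higher and 0 lower. Il1b, the inflammatory interleukin 1β, stood at 36 units on the control array, 13108 at day 1, 121 at day 3 and 8 at day 6, at least 75.8-fold higher at day 1. Both natural brakes on it were higher as well. The antagonist Il1rn was at least 55.1-fold higher (113 and 9539 units, then 1608 at day 3), and the decoy receptor Il1r2 at least 36.5-fold higher (84 and 6321). Il6 stood at 25 and 2377 units, at least 13.7-fold higher, and at 16 and -13 units at days 3 and 6. The interleukin 4 receptor chain Il4ra was 11.8-fold higher (575 and 6815), and its partner Il13ra1 at least 5.37-fold higher (129 and 929). The granulocyte growth factor Csf3 was 2.92-fold higher, at 319 and 933 units. Il10 stood at 22 and 45 units and Tnf at 40 and 169, so neither was above the floor on either array and no fold is given.

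Genes of the NF-kappaB, TNF and Toll-like receptor pathways were higher in 12 of 26 cases and lower in 1. With a floor at the 60th percentile the count was 7 higher. Nfkbia, the inhibitor of NF-kappaB that the factor itself induces, stood at 1623 units on the control array and 7755 at day 1, 4.78-fold higher. Cd14, the co-receptor for endotoxin, was 7.41-fold higher (2414 and 17886). Tlr6 was at least 5.56-fold higher (124 and 962), Tnfaip2 at least 7.96-fold higher (97 and 1378) and Tnfaip6 at least 4.85-fold higher (43 and 838). Lbp, the plasma protein that hands endotoxin to CD14, was 3.95-fold lower (3968 and 1005).

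Genes for feedback on cytokine receptors were in part higher. Of 20 genes of a list for SOCS proteins, Janus kinases and STAT factors, which also holds Bcl3, 4 were higher and 1 lower. The share of lower genes did not exceed that of all genes. Socs3, the brake on interleukin 6 and leptin receptor signals, was 10.2-fold higher (285 and 2919 units), and a further probe set was at least 19.1-fold higher. Cish, a related brake on the growth hormone axis, was 2.49-fold lower (1029 and 413). Bcl3 was 3.27-fold higher (426 and 1393). Cebpb, the C/EBP factor of early fat cell differentiation and of acute phase genes, stood at 3550 units on the control array, 15215 at day 1, 4878 at day 3 and 4824 at day 6, 4.29-fold higher at day 1.

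Acute phase genes and their relatives were higher in 8 of 15 cases and lower in 2. With a floor at the 60th percentile 5 were higher, and the median log2 change went from 1.43 to 0.55. Saa3, the serum amyloid A made in fat and macrophages, stood at 889 units on the control array, 19119 at day 1, 8098 at day 3 and 2016 at day 6, 21.5-fold higher at day 1. The pentraxin Ptx3 was at least 27.5-fold higher (88 and 4755). The metallothioneins Mt2 and Mt1, which bind zinc and copper, were 3.08-fold (15385 and 47418) and 2.72-fold (15520 and 42218) higher. Haptoglobin, Hp, stood at 53796 and 39451 units. Orm1 was 3.07-fold lower (5980 and 1949) and ceruloplasmin, Cp, 2.31-fold lower (2968 and 1283). The liver-type acute phase proteins of this list were therefore not uniformly higher.

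Of 18 measured neutrophil markers 15 were above the floor, 11 were higher and 2 lower, with a median log2 change of 2.71, or 1.45 with a floor at the 60th percentile. Their summed intensity was 8554 units on the control array, 112704 at day 1, 10265 at day 3 and 5253 at day 6. Most of the day 1 sum came from S100a8 and S100a9. In pooled tissue RNA, more or fewer cells of a type and more or less RNA per cell cannot be told apart. S100a9 stood at 119 units on the control array, 26727 at day 1, 540 at day 3 and 13 at day 6, at least 154-fold higher at day 1. S100a8, whose protein pairs with it as calprotectin, stood at 414, 40305, 1494 and 643 units in the same order, 97.3-fold higher at day 1. The gelatinase Mmp9 was 12.6-fold higher (353 and 4438), though a further probe set stood at 50 and 222 units, and the neutrophil collagenase Mmp8 at least 3.91-fold higher (16 and 676). Hdc, which makes histamine, was at least 22.2-fold higher (83 and 3836). The brightest probe set for the granulocyte growth factor receptor Csf3r stood at 1198 and 2041 units and did not pass 2-fold. A further pair of probe sets for the gene stood at -168 and 5706 units and at -49 and 4003 units, at least 33.0-fold and at least 23.1-fold higher.

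Among markers of granule formation in bone marrow precursors, Mpo stood at 84 and 164 units, Ngp at -60 and 91, and Ltf at 117 and 50, none above the floor on either array. Elane was 2.03-fold lower (593 and 292), though within 2-fold with the higher floor or the constant, and Prtn3 at least 4.37-fold lower (756 and 164). Lcn2, a granule protein that fat cells also make, was 2.70-fold higher (4088 and 11028), and a second, dim probe set stood at 277 and 273, so that the mean of both was within 2-fold. Camp, Mpo, Ngp and Ltf are outside the rule by which genes were named and were chosen after their values were seen; Camp stood at 460 and 242 units.

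**Figure D2:**
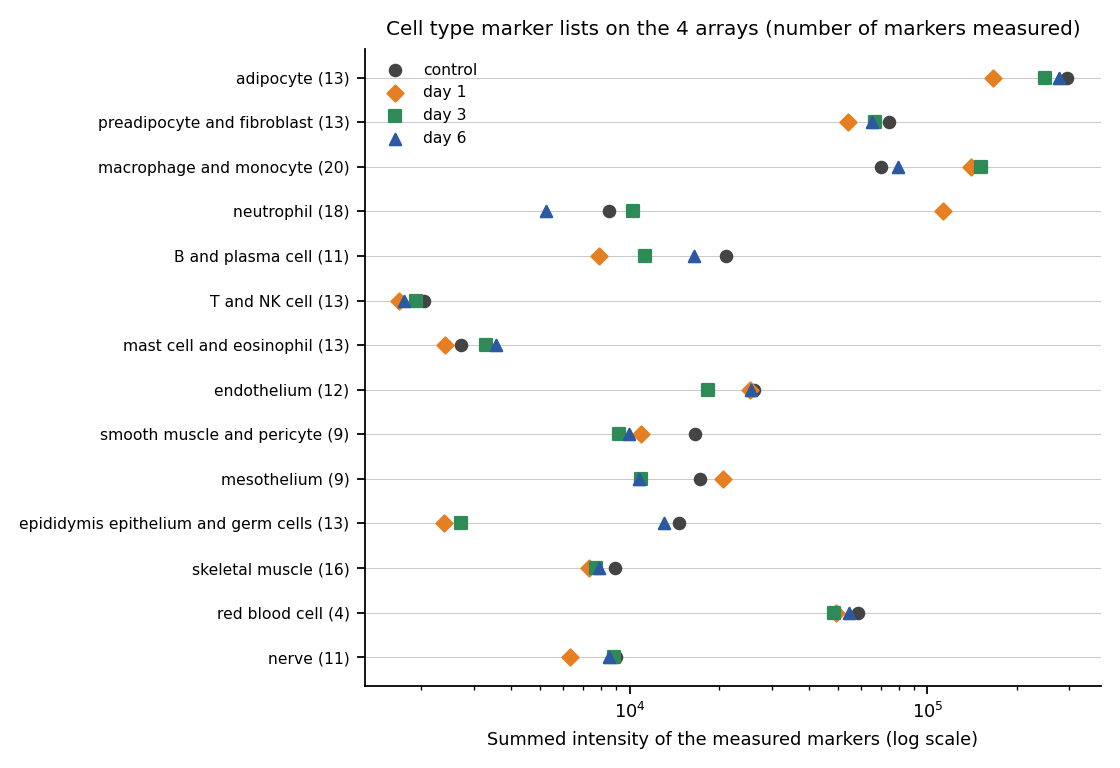
Summed intensity of each list of cell type markers (horizontal axis, log scale) on the 4 arrays, with the number of measured markers in brackets and 1 point for each array. The neutrophil sum of the day 1 array, 112704 units and mostly from S100a8 and S100a9, lies far to the right of the 5253 to 10265 of the other arrays. The epididymis sum lies between 2378 and 2717 on the day 1 and day 3 arrays against 13054 to 14634 on the others.

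Of 20 macrophage and monocyte markers, all above the floor, 10 were higher and 0 lower. Their sum was 69661 units on the control array, 139769 at day 1, 151421 at day 3 and 79882 at day 6. Cd68, the lysosomal protein of macrophages, stood at 1913, 8718, 10439 and 2867 units and was 4.56-fold higher at day 1. Mpeg1, the pore protein perforin-2, was 8.51-fold higher (1661 and 14129, then 10721 at day 3). Adgre1, which encodes the F4/80 antigen, stood at 692 units on the control array, 1321 at day 1 and 3254 at day 3, and did not pass 2-fold at day 1. Itgam, the integrin chain CD11b shared by neutrophils and macrophages, was 14.1-fold higher (186 and 2629). The macrophage and monocyte markers C1qa (11085 and 9082), Lyz2 (11656 and 11627) and Csf1r (3922 and 4161) lie outside the naming rule. They were chosen after their values were seen, and their levels on both arrays were close.

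Most genes of the list for phagocytosis and its signalling were higher. Of 20 Fc receptor and phagocyte oxidase genes above the floor, 15 were higher and 1 lower, with a median log2 change of 1.85. Fcer1g, the shared γ chain of Fc receptors, was at least 7.27-fold higher (143 and 1258 units). The phosphatase Ptpn6, which dampens these receptors, was 8.16-fold higher (194 and 1584). The actin bundler Lcp1 stood at 1743 units on the control array, 12062 at day 1, 7091 at day 3 and 2077 at day 6, 6.92-fold higher at day 1. The high affinity receptor Fcgr1 was 4.97-fold higher (613 and 3045), and the GTPase Rac2, a part of the oxidase, 3.80-fold higher (1394 and 5291). The neonatal Fc receptor Fcgrt, which is not restricted to phagocytes, was the single lower member (3044 and 1283, 2.37-fold).

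The list for alternatively activated and resident macrophages held 6 higher and 2 lower genes of 16. Arg1, which splits arginine into urea and ornithine, stood at 128 units on the control array, 14410 at day 1, 2924 at day 3 and 78 at day 6, at least 83.3-fold higher at day 1. Chil3, which encodes the secreted protein Ym1, was at least 37.6-fold higher (121 and 6505, then 1570 at day 3). Lgals3, galectin-3, was 4.46-fold higher (5566 and 24839) and the scavenger receptor Msr1 at least 5.83-fold higher (113 and 1009). Gas6, a bridge between dying cells and their receptors, was 2.47-fold lower (6691 and 2715). Acod1, which makes the antimicrobial acid itaconate and is typical of inflammatory macrophages, was at least 46.0-fold higher (-2 and 7959), with a second probe set at least 5.81-fold higher. Nos2, the inducible nitric oxide synthase, stood at 137 and 94 units, below the floor on both arrays.

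Polyamine genes sat beside Arg1. Of 12 genes of arginine and polyamine metabolism above the floor, 5 were higher and 1 lower. Odc1, the first enzyme of polyamine synthesis, stood at 624 units on the control array, 3766 at day 1, 737 at day 3 and 617 at day 6, 6.03-fold higher at day 1. Spermidine synthase, Srm, was 2.60-fold higher (885 and 2298), and the catabolic acetyltransferase Sat1 2.73-fold higher (3949 and 10786). Arg2, the mitochondrial arginase, was at least 8.95-fold higher (84 and 1548), while its second probe set stood below the floor on both arrays. Endothelial nitric oxide synthase, Nos3, was 2.36-fold lower (1044 and 442).

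Prostaglandin and leukotriene genes were mixed, with 2 higher and 3 lower of 17. Ptgs2, the inducible cyclooxygenase, stood at 7 units on the control array, 957 at day 1, 28 at day 3 and 34 at day 6, at least 5.53-fold higher at day 1. Pla2g7, which degrades platelet activating factor, was 4.94-fold higher (429 and 2122). Hpgd, the enzyme that inactivates prostaglandins, was at least 14.7-fold lower, with 2541 units on the control array and 159 at day 1. The prostaglandin E2 receptor Ptger3, an inhibitory receptor of fat cells, was 4.26-fold lower (830 and 195).

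Complement and lysosome genes showed both directions. Of 15 complement genes 5 were higher and 2 lower: the receptors C5ar1 (1347 and 5388, 4.00-fold) and C3ar1 (516 and 1675, 3.25-fold) were higher, and the classical pathway protease gene C2 (5747 and 1273, 4.51-fold) was lower. Cd55, which shields cells from complement, was 11.5-fold higher (461 and 5300), and Cd59a, with a like role, 2.55-fold lower (6760 and 2650). Of 42 lysosomal genes 7 were higher and 2 lower, and 30 had a log2 change above 0. The protease Lgmn stood at 1889 units on the control array, 7529 at day 1, 9220 at day 3 and 3342 at day 6, 3.99-fold higher at day 1. The acid lipase Lipa, which degrades cholesterol esters and triglyceride in lysosomes, was 4.57-fold higher (288 and 1317, then 1783 at day 3). Acp5, the tartrate-resistant acid phosphatase, was 4.93-fold lower (11091 and 2248).

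**Figure D3:**
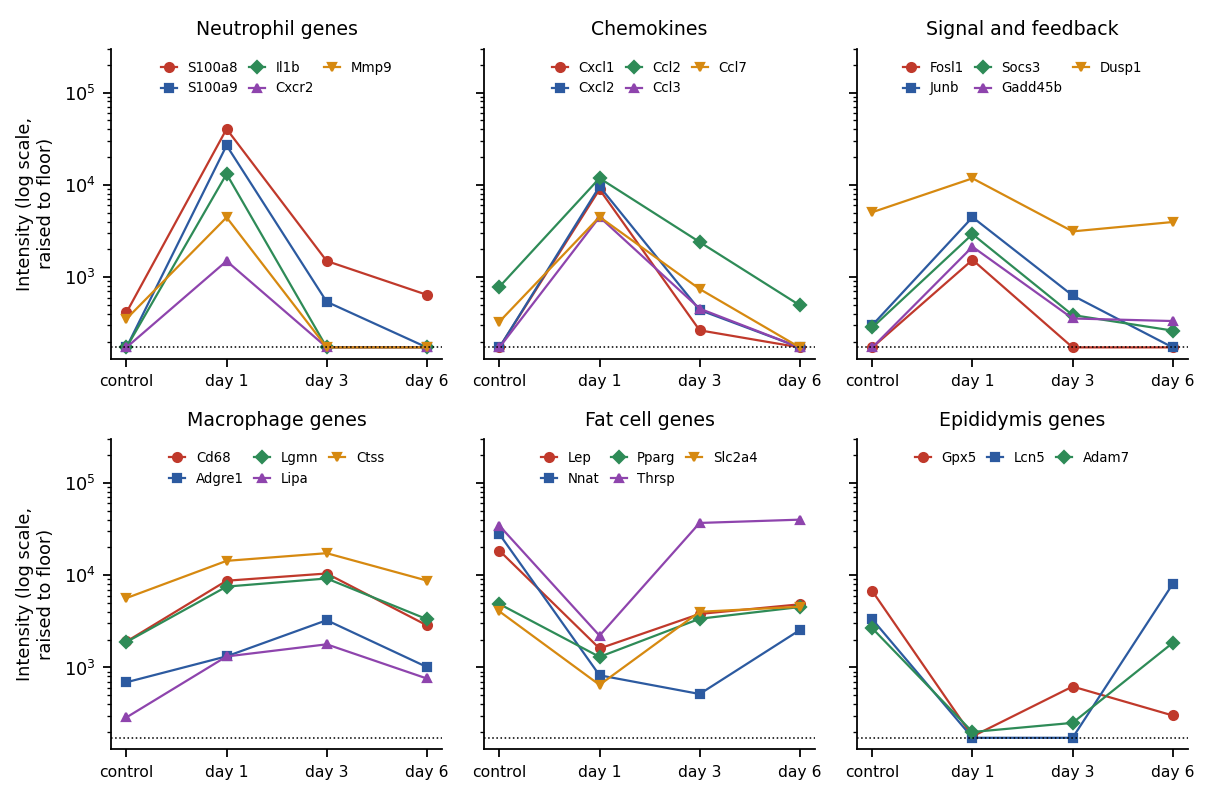
Intensity of named genes on the control, day 1, day 3 and day 6 arrays (vertical axis, log scale, 1 array a point, values under the dotted line of the floor drawn at it). Neutrophil genes and chemokines peak at day 1, macrophage genes such as Cd68 and Lgmn stand higher at day 3 than at day 1, and fat cell genes such as Thrsp and Slc2a4 are lowest at day 1.

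Genes of MHC class II, by which cells present antigen to helper T cells, were in part lower, and those of class I mostly stayed within 2-fold. Of 13 MHC class I genes 1 was lower and 0 higher, and 12 had a log2 change below 0. The class I heavy chain H2-K1 stood at 31108 and 20866 units, and Psmb9, a subunit of the immunoproteasome, was 3.04-fold lower (1263 and 416). Of 9 MHC class II genes 4 were lower and 1 higher, with a median log2 change of -0.81. H2-Aa stood at 13311 units on the control array, 5840 at day 1, 12770 at day 3 and 13387 at day 6, 2.28-fold lower at day 1. H2-Ab1 was 2.37-fold lower (5633 and 2372) and H2-Eb1 2.65-fold lower (7913 and 2991), and they stood at 5552 and 6878 units at day 3. Ighm, the heavy chain of IgM made by B cells, stood at 18367, 5992, 8790 and 13667 units and was 3.07-fold lower at day 1, with a further probe set 5.17-fold lower and another at 338 and 280 units. The mean over all its probe sets, most of them at the floor, was within 2-fold. The 11 measured B cell markers summed to 21055 units on the control array, 7910 at day 1, 11312 at day 3 and 16486 at day 6, and their part in the class II levels was not tested.

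Of 29 interferon response genes 6 were lower and 2 higher. Gbp3 was 3.67-fold lower (1401 and 382), Ifit3 3.30-fold lower (587 and 178) and Iigp1 2.93-fold lower (961 and 328), the last with a second probe set at 616 and 456 units. The median log2 change was -0.22 and became 0.08 with a floor at the 60th percentile, where 3 genes were lower. Ifitm1, a membrane protein of the interferon-induced family, was at least 19.7-fold higher (116 and 3400), and Slfn4, of the schlafen family of myeloid cells, 28.5-fold higher (192 and 5478).

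Of 20 leukocyte adhesion genes 6 were higher and 2 lower. Selp, the P-selectin on which white cells roll, stood at 26 units on the control array and 1204 at day 1, at least 6.96-fold higher, and its ligand Selplg was 4.67-fold higher (1297 and 6054). Icam1 was 2.79-fold higher (287 and 801) and the hyaluronan receptor Cd44 at least 9.44-fold higher (59 and 1634). Vcam1 stood at 396 and 676 units and did not pass 2-fold. Sele stood at 4 and 200 units, and its ratio did not pass 2-fold either. That ratio is a lower bound, because the control level of Sele lay below the floor. Of 30 endothelial genes 5 were lower and 2 higher, and with a floor at the 60th percentile 2 were lower. Cldn5, which seals endothelial junctions, was 4.05-fold lower (3955 and 977), and the angiopoietin receptor Tek 2.66-fold lower (688 and 259), while its ligand Angpt2 was 2.14-fold higher (273 and 584). The junction cadherin Cdh5 stood at 4206 and 4189 units. Vegfb was 4.29-fold lower (5310 and 1237), and Vegfa stood at 1058 and 699.

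Coagulation genes held 4 higher and 2 lower members of 20, and 1 higher with a floor at the 60th percentile. The urokinase receptor Plaur was at least 6.54-fold higher (130 and 1131) and the urokinase inhibitor Serpinb2 at least 5.56-fold higher (130 and 962). Tissue factor, F3, was 3.45-fold lower (1621 and 470).

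Matrix genes were mostly within 2-fold or lower, with a few large increases. None of 32 collagen and laminin genes was higher and 4 were lower. The fibrillar collagens Col1a1 (6736 and 6516) and Col3a1 (12588 and 12896) stood close on both arrays, and the basement membrane genes Nid2 (2122 and 446, 4.76-fold), Lama2 (930 and 264, 3.53-fold) and Nid1 (1256 and 516, 2.44-fold) were lower. Of 34 proteoglycan and matricellular genes 10 were lower and 6 higher, and 6 were lower when the probe sets of a gene were averaged. Ogn, the small proteoglycan osteoglycin, was 11.7-fold lower (6125 and 523), Lum 3.74-fold lower (5092 and 1360) and Fmod 3.50-fold lower (2537 and 724). Versican, Vcan, was at least 13.9-fold higher (58 and 2403), and the hyaluronan synthase Has1 at least 3.78-fold higher (36 and 654). Fibronectin, Fn1, was 2.20-fold higher (5858 and 12861). The small leucine-rich proteoglycan decorin, Dcn, stood at 29871 and 19222 units and did not pass 2-fold.

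Of 17 metalloproteinase and inhibitor genes 5 were higher and 2 lower. Timp1 stood at 1160 units on the control array, 18815 at day 1, 7591 at day 3 and 1597 at day 6, 16.2-fold higher at day 1, while Timp2 was 2.82-fold lower (2049 and 726). The sheddase gene Adam8 was at least 22.7-fold higher (101 and 3932) and stayed at 3045 units at day 3. Of 15 smooth muscle genes 6 were lower and 0 higher. The smooth muscle myosin Myh11 was 3.38-fold lower (2384 and 705) and Mcam 2.57-fold lower (8250 and 3204), and the actin Acta2 stood at 4849 and 3951.

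Of 24 genes for adipokines and other secreted products of fat cells, 11 were lower, 0 were higher and 23 had a log2 change below 0, with a median of -0.95. Leptin, Lep, stood at 18447 units on the control array, 1607 at day 1, 3806 at day 3 and 4839 at day 6, 11.5-fold lower at day 1. A further Lep probe set stood at 10217, 8, 614 and 1412 units and was at least 59.1-fold lower at day 1. Adiponectin, Adipoq, was 2.05-fold lower (52042 and 25374), angiotensinogen, Agt, 3.66-fold lower (12371 and 3377), and the imprinted gene Mest, which marks fat cell enlargement, 5.80-fold lower (1784 and 308). The 13 fat cell markers summed to 295178 units on the control array, 165776 at day 1, 248100 at day 3 and 276985 at day 6, all 13 had a log2 change below 0 at day 1, and 6 were lower. The part of this shift in the lower levels of other fat cell genes was not tested. Because the arrays share 1 distribution of values, a gain of white cell RNA and a loss of fat cell RNA cannot be told apart either.

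Neuronatin, Nnat, a small imprinted membrane protein of fat cells, stood at 27857 units on the control array, 823 at day 1, 516 at day 3 and 2542 at day 6, 33.8-fold lower at day 1. Receptor genes, an opioid precursor gene and a sodium channel gene were also among the largest decreases. The thyrotropin receptor Tshr, which like the β-adrenergic receptors raises cyclic AMP, was 10.9-fold lower (2906 and 268). The natriuretic peptide clearance receptor Npr3 was 9.22-fold lower on its brightest probe set (6179 and 670), and the other probe sets were 7.76-fold and 6.73-fold lower. The opioid precursor Penk was 7.77-fold lower (9584 and 1233) and the sodium channel gene Scn7a at least 7.96-fold lower (1378 and 150). Npr3 stayed low afterwards, at 880 units at day 3 and 1432 at day 6.

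Transcription factors of the adipogenic list were in part lower. Of 36 above the floor 7 were lower and 3 higher, and 4 were lower with a floor at the 60th percentile. The share of higher genes was near that of all genes. Pparg, the master regulator of fat cells, stood at 4874 units on the control array, 1303 at day 1, 3375 at day 3 and 4521 at day 6, 3.74-fold lower at day 1. Its partner Cebpa was 2.02-fold lower (32043 and 15877), though within 2-fold after quantile normalization, and the early B cell factor Ebf2 3.29-fold lower (1146 and 349). Cebpd stood at 3284 and 6428 units, just short of 2-fold. Of the 3 C/EBP genes, Cebpb and Cebpd thus stood above their control level at day 1 and Cebpa below it. The heme receptors of the clock, Nr1d2 (326 and 1135, 3.48-fold) and Nr1d1 (824 and 1832, 2.22-fold), were higher and stayed at 1294 and 1830 units at day 3. The nuclear receptor corepressor Nrip1 was 8.18-fold lower (1750 and 214).

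Insulin signalling genes held 6 lower and 3 higher members of 31. The insulin-responsive glucose transporter Slc2a4, known as GLUT4, stood at 4054 units on the control array, 648 at day 1, 4015 at day 3 and 4553 at day 6, 6.25-fold lower at day 1. The rodent fat cell substrate Irs3 was 5.65-fold lower (1151 and 204). The regulatory subunits of PI 3-kinase, Pik3r1 (1343 and 277, 4.85-fold) and Pik3r2 (581 and 115, at least 3.36-fold), were lower, while Pik3cd, the catalytic subunit of white blood cells, was at least 3.53-fold higher (12 and 611). The translation brake Eif4ebp1, a target of the pathway, was 2.28-fold lower (5077 and 2228). The phosphatase Ptpn1, which removes phosphate from the insulin receptor, was 2.25-fold higher (1665 and 3751). Irs2 stood at 452 and 525, and neither Insr nor Irs1 exceeded the floor on either array. With a floor at the 60th percentile 1 member was higher. On the growth hormone and IGF axis 3 of 12 genes were lower and 0 higher. The growth hormone receptor Ghr was 2.70-fold lower (16227 and 6005), the binding protein gene Igfbp4 2.57-fold lower (8048 and 3137), and Igf1 itself stood at 8574 and 6601.

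Fatty acid synthesis held one of the largest shares of lower genes. Of 16 genes above the floor 10 were lower and 0 higher, with a median log2 change of -1.29 at day 1 against -0.12 and -0.07 at days 3 and 6. Thrsp, the Spot 14 protein that accompanies lipogenesis, stood at 34364 units on the control array, 2214 at day 1, 36861 at day 3 and 40011 at day 6, 15.5-fold lower at day 1. Fatty acid synthase, Fasn, was 6.39-fold lower (31660 and 4958) and back at 23355 units at day 3. The desaturase Scd2 was 3.51-fold lower (13597 and 3869), the elongase Elovl6 3.26-fold lower (1517 and 465), and the suppliers of NADPH and carbon, Tkt (25926 and 8497, 3.05-fold), Me1 (15779 and 6164, 2.56-fold) and the citrate carrier Slc25a1 (12294 and 5125, 2.40-fold), were lower too. Slc25a1 stood at 19122 units at day 3, above its control level.

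The genes of both main fat cell lipases stayed within 2-fold. Pnpla2, the triglyceride lipase ATGL, stood at 36510 units on the control array and 32428 at day 1, and Lipe, the hormone-sensitive lipase, at 15659 and 8425. Of 14 lipase and droplet genes above the floor 1 was higher and 3 were lower, and 12 had a log2 change below 0. The inhibitor of ATGL, G0s2, was 2.39-fold lower (16340 and 6843), and the carboxylesterase Ces1d, a lipase of fat cells, 4.59-fold lower (21690 and 4726). The droplet coat protein Plin2, whose level follows the lipid load of a cell, stood at 13064, 39893, 21576 and 12413 units on the 4 arrays and was 3.05-fold higher at day 1. Caveolin-1, Cav1, was 2.37-fold lower (23620 and 9985), with a dim second probe set at 227 and 92.

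Of 12 genes for the uptake, binding and activation of fatty acids 1 was higher and 0 lower, a share near that of all genes. That gene, Acsl4, encodes an acyl-CoA synthetase with a preference for arachidonate and stood at 924 units on the control array, 5606 at day 1, 871 at day 3 and 749 at day 6, 6.06-fold higher at day 1, with a further probe set at least 12-fold higher. Dgat1, which adds the last acyl chain of triglyceride, was 2.61-fold higher (7675 and 20062) and remained at 13366 and 14450 units. Of 20 genes for glycerol supply and triglyceride synthesis 4 were higher and 3 lower, and 1 was higher with a floor at the 60th percentile. Chpt1, of phosphatidylcholine synthesis, was 2.07-fold lower (17503 and 8458). Among thioesterases and the carnitine shuttle 3 of 9 were higher and 0 lower. The thioesterase Acot1 was at least 5.90-fold higher (124 and 1020), and Cpt1a, the liver form of the gate to mitochondrial oxidation, 2.50-fold higher (3334 and 8319), while Cpt2 stood at 6157 and 6382.

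Of 23 genes of fatty acid oxidation 6 were lower and 1 higher, and 19 had a log2 change below 0. The median log2 change was -0.68 at day 1, 0.45 at day 3 and 0.66 at day 6. Hadh stood at 10345 units on the control array, 4916 at day 1, 14381 at day 3 and 16604 at day 6, 2.10-fold lower at day 1. The enoyl-CoA isomerase Eci1 stood at 7095, 3485, 12189 and 14244 units in the same order, 2.04-fold lower at day 1. Echs1 was 2.30-fold lower (7596 and 3297) and Hsd17b10 3.26-fold lower (4792 and 1472). The single higher gene was the peroxisomal thiolase Acaa1b, with 4800 and 17849 units, 3.72-fold higher, and 27041 at day 3. Pxmp2 and the fatty acid transporter Abcd2, both of the peroxisomal membrane, were named because they were among the largest decreases. Pxmp2 was 9.45-fold lower (5022 and 532) and Abcd2 7.91-fold lower (6283 and 794). No list of peroxisomal membrane genes was made, so a common direction among them was not tested.

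The breakdown of branched-chain amino acids, a major fuel path of fat cells, held mostly lower genes. Of 18 genes, all above the floor, 11 were lower, 1 was higher and 17 had a log2 change below 0. The median was -1.35 at day 1, 0.08 at day 3 and 0.30 at day 6. Bcat2, the mitochondrial transaminase that takes the first step, stood at 3253 units on the control array, 727 at day 1, 4757 at day 3 and 6224 at day 6, 4.47-fold lower at day 1. Bckdha, of the dehydrogenase complex that commits the chain, stood at 3518, 686, 3028 and 6033 units, 5.13-fold lower at day 1. Ivd, which acts on the leucine branch, was 4.98-fold lower (5048 and 1013), Mccc1, a carboxylase of the same branch, 5.51-fold lower (5110 and 928), and Mmut, at the end of the valine and isoleucine branches, 2.97-fold lower (2687 and 904). Only the cytosolic transaminase Bcat1, which is typical of cells other than fat cells, was higher (135 and 398, at least 2.30-fold). Each of Bcat2, Bckdha, Ivd, Mccc1 and Mmut stood higher at day 6 than on the control array.

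**Figure D4:**
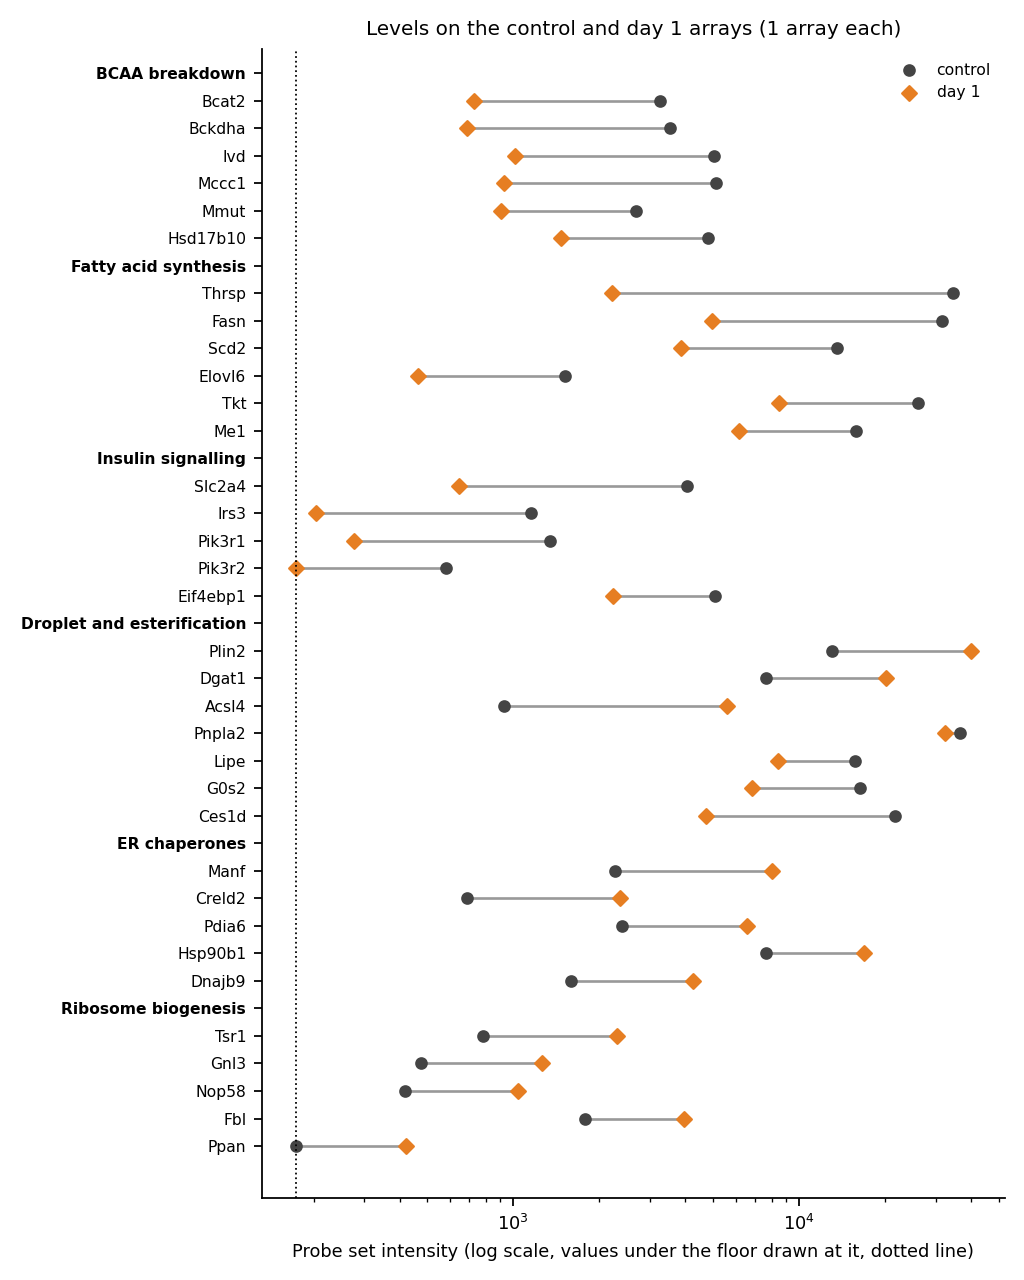
Intensity on the control array (circles) and the day 1 array (diamonds) of named genes from 6 lists (horizontal axis, log scale, 1 array each, values under the dotted line of the floor drawn at it). The genes drawn for branched-chain amino acid (BCAA) breakdown, fatty acid synthesis and insulin signalling lie lower at day 1. They are a selection: the insulin signalling list held 6 lower and 3 higher genes of 31, with a median log2 change of -0.05. Plin2, Dgat1 and Acsl4 and the endoplasmic reticulum (ER) chaperone and ribosome biogenesis genes lie higher, and Pnpla2 lies close on both arrays.

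Of 26 citric acid cycle and pyruvate dehydrogenase genes 3 were lower and 1 higher, and 21 had a log2 change below 0. Pdk4, the kinase that shuts pyruvate dehydrogenase in the fasted state, was 3.23-fold higher (1006 and 3250) and stayed at 3021 and 3491 units at days 3 and 6. Pcx was 2.14-fold lower on its brightest gene probe set (10069 and 4711). The array's own control probe sets along the Pcx transcript were 1.91-fold lower at the 3′ end (19858 and 10411), 2.63-fold and 2.88-fold lower in the middle and 3.11-fold lower at the 5′ end (5797 and 1866). Of 34 genes of respiratory complexes I to III 1 was lower and 0 higher, and of 25 cytochrome oxidase and ATP synthase genes 2 were lower and 0 higher. The share of lower genes in the second list was near that of all genes. Atp5g1, at least 3.49-fold lower (604 and 167), had a second probe set at 123 and 225 units that did not follow. The respiratory chain as a whole stood closer to control than fatty acid or amino acid oxidation did, with medians of -0.26 and -0.23.

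Genes of brown and beige fat showed 1 large increase and no common direction. Of 11 above the floor 2 were higher and 2 lower, and the median of 0.31 became -0.30 with a floor at the 25th percentile and -0.10 at the 60th. Ucp1 stood at -14 units on the control array, 3056 at day 1, 1501 at day 3 and 1190 at day 6, at least 17.7-fold higher at day 1. A second Ucp1 probe set stood at 41, 553, 348 and 142 units, at least 3.19-fold higher at day 1. Dio2, the deiodinase that makes active thyroid hormone, was 3.67-fold higher (197 and 723, then 859 at day 3) but within 2-fold with a floor at the 60th percentile. Cidea, a droplet protein of brown fat, stood at 266 units on the control array and 178 at day 1, then 1312 and 947, and the muscle and brown fat oxidase subunit Cox8b at 1002 and 815, then 9551 and 15473. Ppargc1a, which encodes the coactivator PGC-1α of mitochondrial biogenesis, had 100 and 58 units and so no signal above the floor.

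Of 31 genes of a list for glucose and lactate transport and glycolysis, which also holds Bnip3, 6 were higher and 5 lower. With a floor at the 60th percentile 3 were higher. The ubiquitous transporter Slc2a1, GLUT1, was at least 4.15-fold higher (112 and 718) and Slc2a3, GLUT3, 2.58-fold higher (193 and 498, with a second probe set at 192 and 246), against the 6.25-fold lower Slc2a4. Pgk1 was 2.78-fold higher (3542 and 9831), Pkm 2.26-fold higher (9257 and 20894) and the lactate transporter Slc16a1 2.85-fold higher (374 and 1068). The hypoxia factor Hif1a stood at 6923, 17493, 6721 and 5919 units on the 4 arrays and was 2.53-fold higher at day 1, with a further probe set 2.51-fold higher. Bnip3, a mitochondrial gene that HIF-1 is known to induce, was 3.20-fold lower (2959 and 925). The muscle phosphofructokinase Pfkm (763 and 260, 2.94-fold), the glycogen phosphorylase Pygb (4415 and 736, 6.00-fold) and the branching enzyme Gbe1 (1200 and 415, 2.89-fold) were lower.

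Sterol genes included 1 of the largest increases. Star, whose protein delivers cholesterol to the inner mitochondrial membrane where steroid synthesis begins, stood at 18 units on the control array, 7991 at day 1, 267 at day 3 and -30 at day 6, at least 46.2-fold higher at day 1. A second Star probe set was 7.89-fold higher (177 and 1398). Of 32 sterol genes above the floor 5 were higher and 3 lower, and 3 were higher with a floor at the 60th percentile. The exporter Abcg1 was 2.71-fold higher (921 and 2495, then 2735 at day 3). Fdft1, squalene synthase, was 3.87-fold lower (1826 and 472) and Sc5d 4.94-fold lower (2231 and 452), both enzymes of cholesterol synthesis.

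Of 46 genes of oxidative stress defence and glutathione 6 were higher and 12 lower. Srxn1, which repairs peroxiredoxins and carries the pair of AP-1 matches printed above, stood at 242 units on the control array and 3306 at day 1, 13.7-fold higher, while a second probe set stood at 412 and 539. Heme oxygenase, Hmox1, stood at 2513, 16629, 8956 and 5061 units and was 6.62-fold higher at day 1. Glutathione reductase, Gsr, was 5.61-fold higher (1640 and 9197), mitochondrial superoxide dismutase, Sod2, 3.16-fold higher (2382 and 7522), and thioredoxin reductase, Txnrd1, 2.21-fold higher (1865 and 4129). The lower genes included the glutathione transferases Gsta3, 9.57-fold lower (2946 and 308), Gstt1, 4.76-fold lower (6456 and 1358), and Gstz1, 4.21-fold lower (26769 and 6362). Gstm3 was 5.65-fold lower (6381 and 1129), with a second probe set at 841 and 793.

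Of 33 genes for protein folding in the endoplasmic reticulum above the floor 8 were higher and 0 lower, and 29 had a log2 change above 0, with a median of 0.66 against -0.03 at day 3 and -0.25 at day 6. Manf, a stress-induced secreted factor, was 3.53-fold higher (2265 and 8007), Creld2 3.43-fold higher (687 and 2356), and the disulfide isomerase Pdia6 2.74-fold higher (2395 and 6562). The chaperone Hsp90b1, known as GRP94, stood at 7679 units on the control array, 16795 at day 1, 6796 at day 3 and 5635 at day 6, 2.19-fold higher at day 1. Ppp1r15a, which restores translation after stress, was 3.25-fold higher (261 and 849). Heat shock protein genes held 3 higher and 1 lower of 34, with a share of higher genes near that of all genes. Hsph1 was 3.51-fold higher (1541 and 5413) and the HSP70 co-chaperone Bag3 2.80-fold higher (1336 and 3742), while Hspa8 stood at 12439 and 15550 units.

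Of 37 genes for building ribosomes 9 were higher and 0 lower, 35 had a log2 change above 0, and 5 were higher with a floor at the 60th percentile. Tsr1, of small subunit maturation, was 2.95-fold higher (783 and 2311), the nucleolar GTPase Gnl3 2.65-fold higher (474 and 1259), the snoRNP protein Nop58 2.47-fold higher (418 and 1035) and the methyltransferase Fbl 2.23-fold higher (1781 and 3967). By day 3 Tsr1 stood at 886 units and Fbl at 2231. Of 27 ribosomal protein genes 1 was higher and 1 lower, with Rplp0 at 39265 and 49554 units. None of 39 proteasome genes passed 2-fold, and 1 of 32 translation factor genes did.

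Cytoskeleton and motility genes held 14 higher and 0 lower members of 48. The tubulin Tubb2a was 3.46-fold higher (4634 and 16033), though a second probe set stood at 363 and 369, and Marcksl1 3.95-fold higher (1085 and 4283). Myo1f, a myosin of neutrophils and macrophages, was 3.03-fold higher (409 and 1241). Cell cycle genes showed 3 higher and 3 lower of 41 at day 1, shares near those of all genes. Cdkn2c, the cell cycle inhibitor p18 of mature fat cells, was 5.55-fold lower (12112 and 2184) and Cdkn1c 3.45-fold lower (1579 and 458). Cks2, needed for division, was at least 4.10-fold higher (139 and 709) and stayed at 754 units at day 3.

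Genes of the epididymis, the duct that lies against this fat pad, were among the largest decreases. Gpx5, an epididymal secretory peroxidase, stood at 6711 units on the control array, 179 at day 1, 622 at day 3 and 302 at day 6, 37.5-fold lower at day 1. A second Gpx5 probe set was at least 31.5-fold lower. Lcn5, an epididymal retinoid carrier, stood at 3321, 63, 7 and 8029 units, at least 19.2-fold lower at day 1, and Adam7 at 2654, 200, 251 and 1846, 13.3-fold lower. The 13 measured epididymis and germ cell markers summed to 14634 units on the control array, 2378 at day 1, 2717 at day 3 and 13054 at day 6. Of the 6 above the floor 3 were lower. The day 6 array thus held Lcn5 and Adam7 at or above 1846 units with Gpx5 at 302. The part of epididymal RNA in other decreases at day 1 was not tested.

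Markers of other cells were checked the same way. The 9 smooth muscle markers included 4 lower and 0 higher, the 12 endothelial markers 3 lower and 0 higher, the 13 preadipocyte and fibroblast markers 3 lower and 0 higher, and the 9 mesothelial markers 1 higher and 2 lower. Upk3b, of mesothelium, was 2.35-fold lower (5354 and 2283) and Slpi, a secreted protease inhibitor, 2.02-fold higher (7750 and 15659). The red cell gene Hba-a1 stood at 46340 and 39369 units. Mast cell, skeletal muscle and nerve markers above the floor numbered 3, 9 and 6, with 1 muscle gene lower (Myl1, 3864 and 1090, 3.54-fold) and no other past 2-fold.

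Further genes lay at either end of the ranking. Alpl, the tissue-nonspecific alkaline phosphatase that is abundant in neutrophils, was 34.5-fold higher (186 and 6424), the C-type lectin Clec4d of myeloid cells at least 44.1-fold higher (68 and 7622), and the semaphorin Sema4d 15.5-fold higher (216 and 3339). Inmt, a methyltransferase of indole compounds, was 12.5-fold lower (7557 and 603), and the selenium-binding protein gene Selenbp1 10.3-fold lower (3844 and 375). Igfals, which carries IGF in blood, was at least 10.2-fold lower (1760 and -11 units), while a second probe set did not exceed the floor on either array. The matrix gene Matn2 was 8.11-fold lower (1913 and 236), Smim1 8.06-fold lower (2521 and 313), Nrep 8.46-fold lower (1800 and 213) and Eepd1 8.25-fold lower (3497 and 424). Selenbp1, Smim1 and Matn2 stood at 2864, 1284 and 1082 units at day 3, and Eepd1 at 614.

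**Figure D5:**
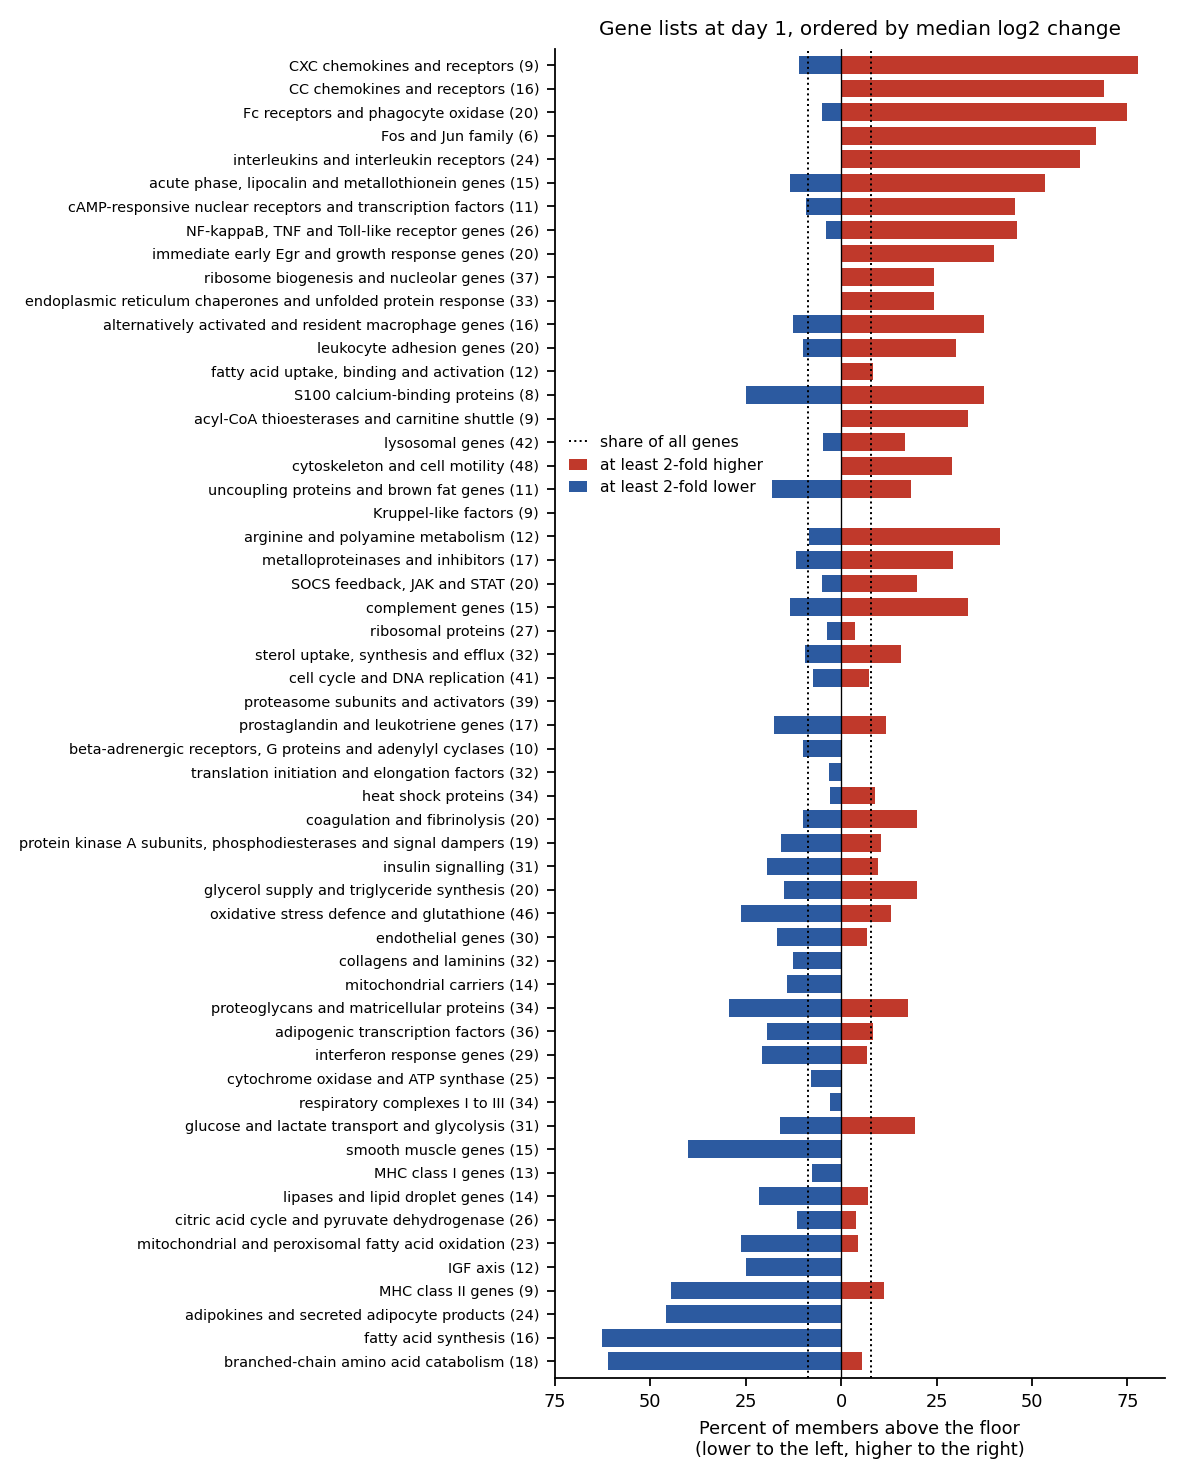
Share of the members above the floor that were at least 2-fold higher (red, to the right) or lower (blue, to the left) at day 1 in each pathway list, in percent, with the number of members above the floor in brackets and the lists ordered by median log2 change. Dotted lines mark the shares over all genes above the floor, 7.78% higher and 8.65% lower. Chemokine and phagocyte lists lie at the top, and fatty acid synthesis and branched-chain amino acid catabolism, with 10 of 16 and 11 of 18 lower, at the bottom.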

How the data were processed

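RNA from 4 pooled samples of epididymal fat had been measured on 1 Affymetrix mouse expression array each. What the authors deposited are probe set intensities on a linear scale, rounded to whole numbers, and 12.2% to 12.4% of an array's values lie at or below 0. Not given in the sources used here are their software, background step and normalization. The deposited columns have medians of 314 to 314.5 and a 75th percentile of 1199, so they shared a distribution before any step taken here.

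Of 12488 probe sets 66 array controls were left out. Arrays were scaled to a common mean of values between the 2nd and 98th percentiles (factors 0.999 to 1.001), raised to the floor (40th percentile) and compared as log2 ratios in Python 3.11.15 with numpy 2.4.6 and pandas 2.3.3. Gene symbols were taken from the platform's annotation (10833 probe sets with 1 symbol, 396 with several and 1193 not listed). The 10817 matches to RefSeq's table were by Entrez identifier. The code was checked on day 6 values with known large changes put into bright probe sets. That check covered no dim genes, no changes near 2-fold and no false calls.

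Genes named were the 25 largest increases and 25 largest decreases among genes at least 2 times above the floor on their brighter array, up to 6 members of each list in each direction, the brightest members of lists with few changes, and 58 fixed genes, of which 50 were measured. The rule gave 407 genes. These members, lists and rules were chosen with earlier results of these data known. Of 88 named genes past 2-fold with a further probe set, 60 had one above the floor, and 37 had one past 2-fold in the same direction. For the other 23 no further probe set followed past 2-fold, and 0 genes had one past 2-fold in the opposite direction.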

Additional observations from a re-analysis of the deposited data

How the results depend on the processing

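Alternatives for the floor and the scaling were computed for each count, list median and named gene, averaged probe sets for counts of genes, list medians and named genes, and the 3-fold threshold for the counts alone. A floor at the 25th percentile gave 958 higher and 1040 lower probe sets. One at the 60th percentile gave 375 and 377, with 301 genes higher and 318 lower. At 3-fold the counts were 285 and 219 probe sets and 213 and 178 genes. The other alternatives kept each count within 1.5 times its value: a constant of 100 added in place of a floor, no common scaling, quantile normalization, and the mean over the probe sets of a gene. The median of the brown fat list, 0.31, turned to -0.30 and -0.10 with the lower and the higher floor. Of 70 list medians, 14 others moved by more than 0.28 at the higher floor, 7 at the lower, 6 with averaged probe sets and 0 under the other alternatives. Of 322 named genes past 2-fold, 242 were still past it with the higher floor, 293 with the constant added, 289 with averaged probe sets, 321 after quantile normalization and 322 with the lower floor or without scaling. Among the genes described above, those no longer past 2-fold at the higher floor were Acot1, Angpt2, Atp5g1, Bcat1, Cish, Cks2, Crebbp, Csf3, Cxcr4, Dio2, Elane, Has1, Icam1, Ifit3, Iigp1, Il13ra1, Lama2, Mmp8, Msr1, Myc, Nop58, Nos3, Nr4a1, Pde1b, Pde8a, Pfkm, Pik3cd, Pik3r2, Pkia, Ppp1r15a, Prtn3, Ptger3, Ptgs2, Serpinb2, Slc16a1, Slc2a1, Slc2a3, Tek, Tlr6 and Tnfaip6. With averaged probe sets they were Atp5g1, Cav1, Egr1, Fmod, Igfbp4, Ighm, Iigp1, Lcn2, Pcx, Pkia, Slc2a3, Slpi, Timp2 and Tubb2a, many of which have a probe set at the floor. With the constant they were Angpt2, Crebbp, Egr1, Elane, Pde1b and Pde8a, and after quantile normalization Cebpa. The causes were not tested, other than that a higher floor shrinks the ratios of dim genes by its construction. Intensity near background limits the ratios of 124 higher genes whose control level, and 79 lower genes whose day 1 level, lay at or below the floor. No paired analysis was possible because each group has 1 array.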
